A study of Mus musculus with 6 samples.

Results

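Integrins are cell surface receptors built from 1 α and 1 β subunit, and the transcripts of 10 subunit genes were followed here in mouse cortical cultures given α-synuclein fibrils. The 10 were chosen by gene symbol, as Itgal, Itga4, Itga5, Itga6, Itga7, Itgav, Itgb1, Itgb2, Itgb5 and Itgb8, and each had a row among the 24411 genes of the count table. They were read in 2 groups: 3 subunits of leukocytes (Itgal, Itga4 and Itgb2) and 7 that are broadly expressed. Itga4 is placed with the leukocyte subunits although other cell types also use it.

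The chain that an integrin carries sets its ligand. The β2 chain occurs in cells of blood lineage, microglia included, where it pairs with αL, αM, αX or αD and binds ICAM proteins and complement fragments. The β1 chain pairs with many α chains and binds laminin, fibronectin and VCAM-1, and αV with β5 or β8 binds vitronectin or latent TGF-β. In brain tissue, β1 integrins anchor glia and vessels to basement membrane, αVβ8 of glia releases active TGF-β, and αMβ2 is the complement receptor by which microglia engulf material.

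The cells were primary cultures from the cortex of mouse embryos at day 18, and the strain is not given in the sources used here. One group of 3 libraries, numbered 1 to 3, received phosphate-buffered saline (PBS). The other group of 3 received preformed fibrils (PFF) of mouse α-synuclein, 3.45 µM in the medium from day 10 in vitro. RNA was taken on day 18, after 8 days. Cells were seeded in medium with serum and then kept in a neuron medium, and PBS is the only control. PFF are aggregates assembled outside the cell that seed aggregation of the cell's own α-synuclein. Whether the 3 libraries of a group came from separate cultures is not stated, so a p-value here reflects the spread of these libraries alone, which may be technical.

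Library totals ran from 9224974 to 10742383 counts. The root mean square difference in log2 level between libraries of 1 group, over the 13919 genes tested, was 0.29 (PBS) and 0.26 (PFF) for replicates 1 and 2, and 0.30 to 0.31 for pairs that held replicate 3. For named genes whose call changes with replicates 1 and 2 alone, that value is also given. The cultures were labelled as cortical neurons, and 7 neuronal markers summed to between 3984 and 4605 CPM (counts per 1000000, normalised between libraries by the TMM method). They also held astrocytes, whose 7 markers summed to between 3491 and 4715 CPM, and cells of the oligodendrocyte lineage and microglia. Because these are whole cultures, more cells of a type and more RNA per cell cannot be told apart.

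Of the 10 integrin genes, 9 had enough counts to be tested, and 2 of these rose after PFF: the leukocyte chain Itgb2 and the fibronectin receptor chain Itga5. None fell, and 7 did not pass the test, which took no account of replicate numbers. Among the 13919 genes tested, 6.58% were called in either direction. They divide into 3.98% called higher and 2.60% called lower, at an adjusted p under 0.05 (edgeR's quasi-likelihood test with Benjamini-Hochberg adjustment). The median log2 fold change was 0.31 over the 9 members and −0.00 over all genes tested. The lowest PFF library exceeded the highest PBS library for 3 of the 9 (Itgb2, Itga5 and Itgav), against 13.4% of all genes tested, and the reverse held for none of the 9, against 11.6% of all genes.

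**Figure D1:**
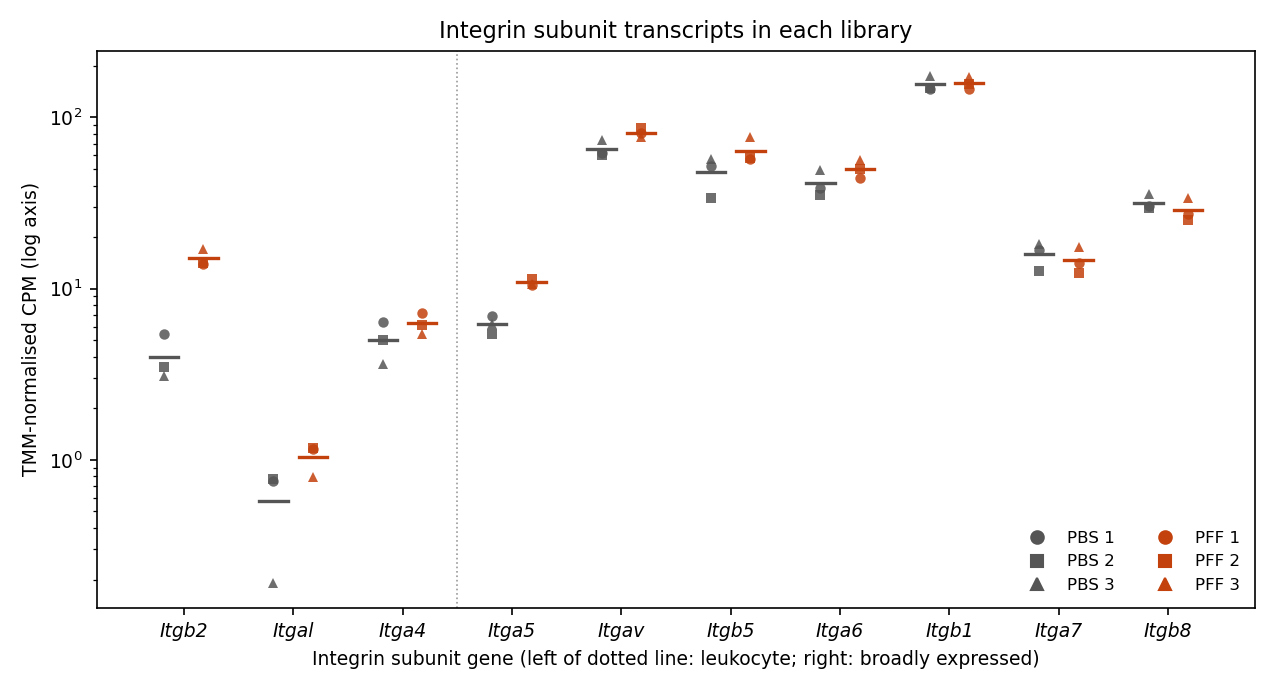
Each point is the TMM-normalised level of 1 gene in 1 library in CPM on a log axis, with PBS in grey, PFF in orange, the replicate number as the symbol and the group mean as a bar. Itgb2 stands between 3.08 and 5.41 CPM in PBS and between 13.9 and 17.1 CPM in PFF, while the points of Itgb1 overlap.

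Among the leukocyte subunits, Itgb2, the common β chain of the leukocyte integrins, stood at 5.41, 3.49 and 3.08 CPM in PBS 1, 2 and 3. It stood at 13.9, 14.1 and 17.1 CPM in PFF 1, 2 and 3. Every PFF library was above every PBS library, and PBS 1 was the highest of its group. Its log2 fold change was 1.92 with a standard error of 0.19 (3 libraries in each group, as for all log2 fold changes given as value ± SE), with an adjusted p of 5.42e-05 in edgeR's test. In the same libraries 14 of 15 tested microglia markers rose, from a summed level of 213 to 335 CPM to one of 607 to 738 CPM, and their part in the rise was not tested. Itgb2 lies on the forward strand of chromosome 10 from 77530252 to 77565708 (GENCODE vM21, GRCm38, the assembly of mm10). Its counts are per gene, with no detail of exons or transcripts.

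Itgal encodes αL, which with β2 forms LFA-1, the ICAM receptor of lymphocytes and other leukocytes. It had 7, 8 and 2 counts in PBS and 12, 12 and 8 in PFF, which is 0.757, 0.776 and 0.192 CPM against 1.16, 1.17 and 0.790 CPM. The groups did not overlap, but PFF 3 and PBS 2 both had 8 counts and differ only by library scaling, and the gene was too low to pass the count filter. Without that filter its log2 fold change was 0.85 ± 0.47 with a 95% interval from −0.11 to 1.81 (adjusted p = 0.367, edgeR). This interval covers 0 and overlaps with that of Itgb2 (1.51 to 2.33 in the filtered fit), so a difference between the 2 genes is not shown. The gene lies on chromosome 7 from 127296260 to 127335138.

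Itga4 encodes α4, which pairs with β1 or β7 and binds VCAM-1 and fibronectin. It stood at 6.38, 5.04 and 3.65 CPM in PBS and at 7.22, 6.16 and 5.43 CPM in PFF, and the groups overlapped. Its log2 fold change of 0.33 ± 0.21 did not pass (adjusted p = 0.384, edgeR; 95% interval −0.12 to 0.77). With 1 library left out it went from 0.14 (without PBS 3) to 0.53 (without PBS 1), and it passed in none of these 6 fits. The whole of the 95% interval is below that of Itgb2, which runs from 1.51 to 2.33. Of the exonic bases of Itga4, 8.04% lie opposite exons of Cerkl. Its β7 partner, Itgb7, had between 2 and 14 counts per library and was not tested.

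The α chains that pair with β2 differed in level. Per kilobase of exon, Itgam (αM) stood at 0.906 ± 0.133 CPM in PBS and 3.37 ± 0.215 in PFF, Itgax (αX) at 0.213 ± 0.0680 and 0.394 ± 0.310, and Itgal at 0.0875 ± 0.0505 and 0.158 ± 0.0329 (mean ± SD, n = 3). Itgad (αD) had at most 2.11 counts in any library. The sum of these 4 went from 1.24 ± 0.0560 CPM per kilobase in PBS to 3.94 ± 0.511 in PFF, beside 1.31 ± 0.408 and 4.92 ± 0.589 for Itgb2. Itgam was the most abundant of the 4 in each library.

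Itgam, which is not one of the 10, was the other integrin gene called, with a log2 fold change of 1.89 ± 0.15 (adjusted p = 5.29e-06, edgeR). Its level was 4.98, 3.78 and 4.90 CPM in PBS and 16.4, 16.2 and 18.2 CPM in PFF, with no overlap. Of its exonic bases, 68.7% lie in another gene model on the same strand, Gm49368, so its counts are uncertain. Itgax had 1 high library, PFF 3, at 35.89 counts against 6 to 14.85 in the other 5. Its log2 fold change of 0.86 ± 0.51 did not pass (adjusted p = 0.360) and was 0.05 without PFF 3.

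To set a leukocyte chain against a broadly expressed one, the log2 ratio of Itgb2 to Itgb1 was taken in each library, as the difference of their log2 CPM with a prior count of 2. It was −4.71, −5.34 and −5.74 in PBS and −3.38, −3.46 and −3.32 in PFF. The PFF ratios were all higher, and closer to each other than the PBS ratios were. The difference of 1.87 is 3.66-fold, and the exact two-sided permutation test over the 6 libraries gave p = 0.1, the smallest value that 3 against 3 allows. The ratio of Itgal to Itgav differed by 0.46 on the log2 scale with overlapping groups (exact permutation p = 0.6). It was −0.07 without PBS 3, whose Itgal value was the lowest.

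Among the broadly expressed subunits, Itga5, whose α5 chain pairs with β1 as the classical fibronectin receptor, rose. It stood at 6.92, 5.43 and 6.25 CPM in PBS and at 10.5, 11.4 and 10.67 CPM in PFF. The groups did not overlap and the PFF libraries lay close together. The log2 fold change was 0.81 ± 0.15 (adjusted p = 0.00381, edgeR; 95% interval 0.50 to 1.13), and this interval lies below that of Itgb2. The gene lies on the reverse strand of chromosome 15 from 103344286 to 103366763.

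The RefSeq promoter windows (250 bases before to 50 after an annotated start, GRCm38.p6) of the called genes Itga5 and Itgam, and of Itgb1, which was not called, are shown because myeloid genes are often read by the factor PU.1. The capitals mark GAGGAA, the core letters of many PU.1 sites, or TTCCTC, the same letters on the other strand. Windows are read 5′ to 3′ along the gene's strand.
Itga5, chr15:103366742-103367041, reverse strand: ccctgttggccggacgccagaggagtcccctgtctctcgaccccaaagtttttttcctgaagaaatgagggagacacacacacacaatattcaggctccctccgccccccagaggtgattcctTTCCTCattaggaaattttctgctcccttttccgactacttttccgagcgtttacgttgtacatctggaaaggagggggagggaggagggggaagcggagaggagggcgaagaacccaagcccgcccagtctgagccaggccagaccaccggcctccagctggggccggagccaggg
Itgam, chr7:128062390-128062689, forward strand: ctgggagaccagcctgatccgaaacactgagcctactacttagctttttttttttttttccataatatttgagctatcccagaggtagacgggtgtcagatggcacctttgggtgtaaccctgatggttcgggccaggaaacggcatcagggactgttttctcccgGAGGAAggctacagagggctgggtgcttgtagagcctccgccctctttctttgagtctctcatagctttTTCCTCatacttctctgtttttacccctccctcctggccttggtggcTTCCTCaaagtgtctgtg
Itgb1, chr8:128685404-128685703, forward strand: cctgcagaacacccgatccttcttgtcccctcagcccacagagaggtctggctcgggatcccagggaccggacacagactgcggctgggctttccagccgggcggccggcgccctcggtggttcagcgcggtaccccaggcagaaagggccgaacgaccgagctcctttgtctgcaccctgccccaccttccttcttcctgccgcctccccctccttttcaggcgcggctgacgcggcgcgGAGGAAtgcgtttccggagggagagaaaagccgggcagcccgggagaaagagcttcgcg

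The letters occurred once for Itga5, at position −127 from the start, once for Itgb1, at −9, and 3 times for Itgam, at −84, −15 and 32. Of the 10 members, 6 matched a window by symbol, and 3 of these 6 held the letters (Itga5, Itgav and Itgb1). Itga4, Itgb5 and Itgb8 did not hold them, and Itgal, Itgb2, Itga6 and Itga7 had no match by symbol. Among all 32851 windows of that length, 28.3% held the letters. A match describes the sequence only, and both a called gene and a gene without a call had one.

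Itgav and Itgb5 encode the chains of the vitronectin receptor αVβ5. Itgav stood at 61.7, 60.4 and 74.1 CPM in PBS and at 80.8, 86.6 and 76.4 CPM in PFF. The groups did not overlap, but PBS 3 came near PFF 3. The log2 fold change of 0.31 ± 0.09 just missed the threshold (adjusted p = 0.0610, edgeR; 95% interval 0.12 to 0.51, not adjusted for the number of genes). With replicates 1 and 2 only it was 0.46 ± 0.08 (adjusted p = 0.000114), and it passed as well without PBS 3 (0.0128) or without PFF 3 (0.0197). Of its exonic bases, 5.90% lie opposite exons of Gm13684.

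Itgb5 stood at 51.7, 33.8 and 57.5 CPM in PBS and at 56.999, 58.2 and 76.9 CPM in PFF. PBS 2 was low and PFF 3 high, and the groups overlapped. Its log2 fold change of 0.43 ± 0.18 did not pass (adjusted p = 0.200, edgeR). It was 0.22 without PBS 2 and 0.27 without PFF 3, and passed when replicate 3 was modelled as a separate batch (adjusted p = 0.0263). Itga6, which encodes the laminin-binding α6 chain, behaved alike in that replicate 3 was the highest of both groups. It stood at 38.9, 35.0 and 49.5 CPM in PBS and at 44.3, 49.9 and 56.5 CPM in PFF, and the log2 fold change was 0.29 ± 0.12 (adjusted p = 0.207). It passed without PBS 3 (adjusted p = 0.0337) and with replicates 1 and 2 only (0.00882). Without PBS 2 it was 0.18 (adjusted p = 0.495) and without PFF 3 it was 0.19 (0.343).

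Itgb1, the β chain shared by the laminin, collagen and fibronectin receptors, lies on chromosome 8 from 128685654 to 128733200. It stood at 146, 149 and 174 CPM in PBS and at 146, 157 and 173 CPM in PFF. The groups covered almost the same range, with replicate 3 the highest in both. The log2 fold change was 0.02 ± 0.09 (adjusted p = 0.931, edgeR), with a 95% interval from −0.17 to 0.21, and with 1 library left out it went from −0.05 (without PFF 3) to 0.10 (without PBS 3).

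Itga7, the α7 laminin receptor chain of muscle that glia also express, stood at 16.8, 12.7 and 18.2 CPM in PBS and at 14.2, 12.3 and 17.6 CPM in PFF. In both groups replicate 2 was the lowest and replicate 3 the highest. The log2 fold change was −0.11 ± 0.16 (adjusted p = 0.736; 95% interval −0.45 to 0.23), and went from −0.26 (without PFF 3) to −0.00 (without PBS 3). Itgb8, the αV partner that releases TGF-β from its latent form, stood at 30.2, 29.4 and 35.5 CPM in PBS and at 27.2, 25.2 and 33.9 CPM in PFF. Its groups overlapped, and its log2 fold change was −0.14 ± 0.12 (adjusted p = 0.537; 95% interval −0.40 to 0.11), and it went from −0.27 (without PFF 3) to −0.05 (without PBS 3). Among these genes Itgav lies on chromosome 2 from 83724397 to 83806916, Itga6 on chromosome 2 from 71745616 to 71858416 and Itga4, of the leukocyte subunits, on chromosome 2 from 79255426 to 79333123. Itgb5 lies on chromosome 16 from 33829665 to 33949338, Itga7 on chromosome 10 from 128933818 to 128958282 and Itgb8 on chromosome 12 from 119158022 to 119238802. None of the 10 members shares exonic bases with another annotated gene on its own strand.

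**Figure D2:**
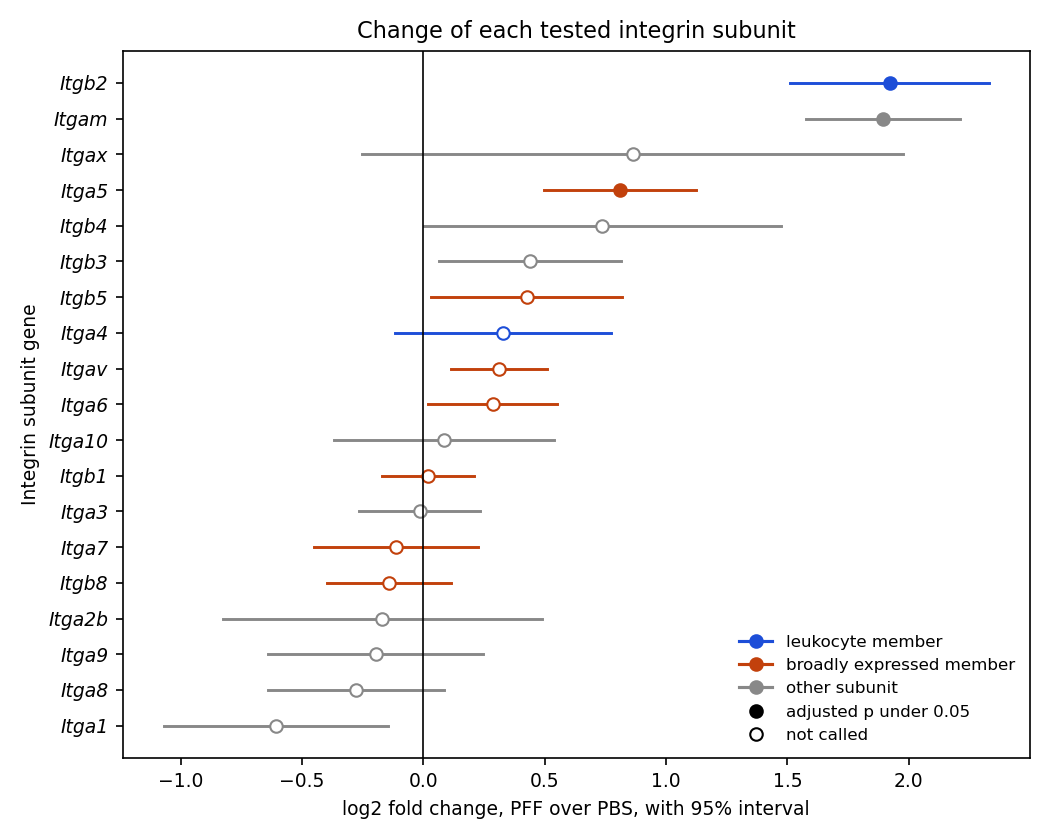
Points are log2 fold changes of PFF over PBS for the 19 integrin genes that were tested, lines are 95% intervals and filled points have an adjusted p under 0.05. Itgb2 (1.92), Itgam (1.89) and Itga5 (0.81) are filled, and Itgb1 lies at 0.02.

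Levels between genes were compared per kilobase of all annotated exons. In PBS the order was Itgb1 (38.4 ± 3.78 CPM per kilobase), Itgb5 (13.4 ± 3.47), Itgav (6.09 ± 0.706), Itga6 (4.56 ± 0.831), Itgb8 (2.86 ± 0.299), Itga7 (1.96 ± 0.351), Itgb2 (1.31 ± 0.408), Itga5 (1.26 ± 0.151), Itga4 (0.360 ± 0.0976) and Itgal (0.0875 ± 0.0505). The ranges of Itga7 and Itgb2, and of Itgb2 and Itga5, overlapped, and those of the other neighbours did not. In PFF, Itgb2 (4.92 ± 0.589) stood at rank 5, overlapping with Itga6 (5.56 ± 0.677) and above Itgb8 (2.60 ± 0.410). Its neighbours further down, Itgb8 with Itga5 (2.20 ± 0.102) and Itga5 with Itga7 (1.81 ± 0.330), overlapped. Per kilobase of the longest annotated transcript, an alternative chosen after the data were seen, Itgb2 stood at rank 8 in PBS and rank 5 in PFF, and Itga6 stood above Itgav.

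Expressed as a share of the summed CPM per kilobase of the 8 β genes, Itgb2 made up 3.16, 2.22 and 1.57% in PBS and 7.54, 7.28 and 7.54% in PFF. Itgb1 made up 64.1, 70.9 and 66.7% in PBS and 59.6, 60.6 and 57.01% in PFF, while the test of its own level did not pass. Itgb8 made up 5.01 ± 0.145% and 3.93 ± 0.290%, and Itgb5 23.2 ± 4.12% and 27.2 ± 1.73%. Shares of 1 pool are not independent, since 1 share must fall where another rises. Among the 18 α genes, Itgav and Itga6 held the largest shares (28.2 ± 1.62% and 21.1 ± 2.20% in PBS, 27.6 ± 2.45% and 20.2 ± 1.61% in PFF). Itga5 made up 5.83 ± 0.556% in PBS and 8.03 ± 0.470% in PFF, and Itgal under 1% in each library.

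**Figure D3:**
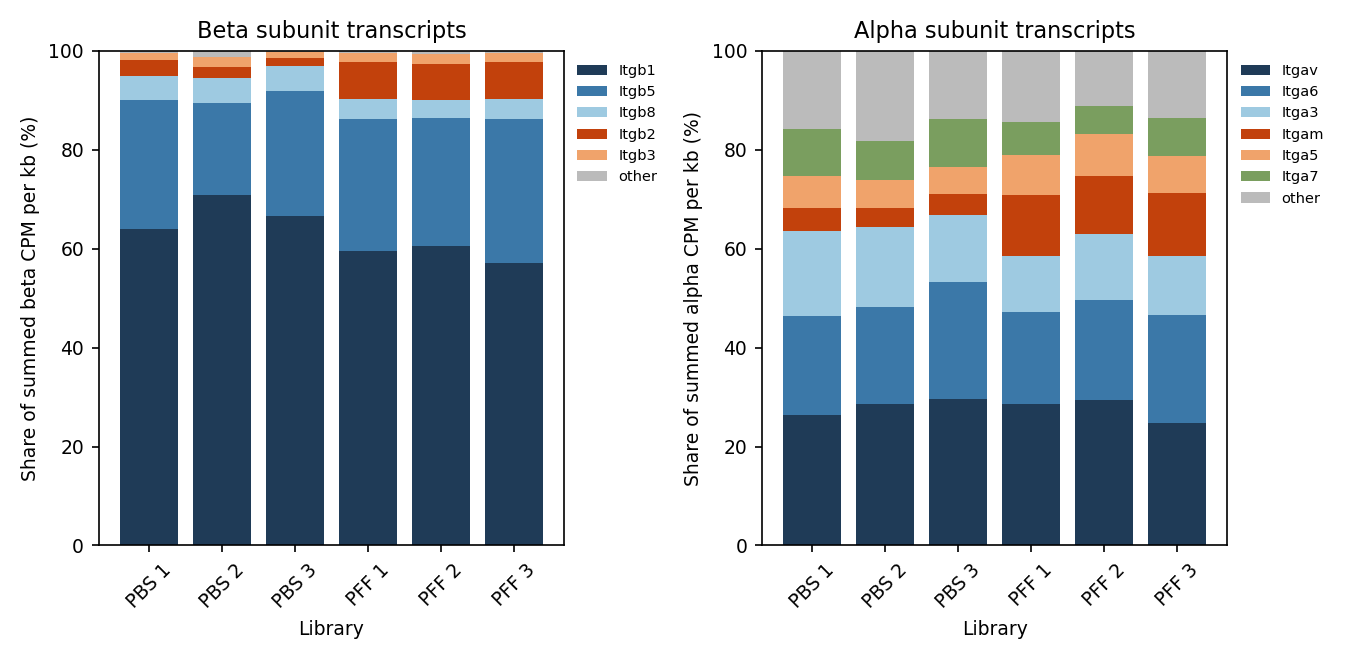
Stacked bars give, for each library, the share in percent of summed CPM per kilobase of exon held by the β genes (left) and the α genes (right). The Itgb2 segment is between 1.57 and 3.16% in PBS and between 7.28 and 7.54% in PFF, and the Itgam segment goes from a mean of 4.19 to 12.3%.

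Of the 16 other integrin subunits, 10 were tested and only Itgam was called, against 6.58% of all genes tested. Itgb3, the β chain of the platelet fibrinogen receptor and of αVβ3, stood at 5.20 ± 0.800 CPM in PBS and 7.06 ± 0.881 in PFF (log2 fold change 0.44 ± 0.17, adjusted p = 0.166). Itgb4 had 0.74 ± 0.34 from 0.828 ± 0.215 CPM (adjusted p = 0.234), and Itga1, a collagen receptor chain, −0.61 ± 0.21 from 3.96 ± 0.255 CPM (adjusted p = 0.121). The laminin receptor chain Itga3 stood at 19.2 ± 1.89 and 19.0 ± 1.88 CPM (−0.02 ± 0.12, adjusted p = 0.958). Itga8 (−0.28 ± 0.17), Itga9 (−0.20 ± 0.21), Itga10 (0.08 ± 0.21) and Itga2b (−0.17 ± 0.31) did not pass either. The median over the 10 was 0.03. Itga2, Itga11, Itgad, Itgae, Itgb6 and Itgb7 were not tested, and Itgb6 had 0 counts in all libraries.

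Integrins signal through adaptors that link the β tail to actin and switch the receptor on. Of 35 such genes 32 were tested, 4 rose, 2 fell and 26 did not pass, with a median of 0.00. Among all genes tested 3.98% were called higher and 2.60% lower. Fermt3 (kindlin-3, the kindlin of blood cells) stood at 4.76, 3.78 and 2.88 CPM in PBS and at 10.5, 8.90 and 13.1 in PFF, a log2 fold change of 1.52 ± 0.20 (adjusted p = 0.000404, edgeR). Apbb1ip, which encodes RIAM, the Rap1 effector that recruits talin, stood at 5.62, 3.88 and 4.23 CPM in PBS and at 15.1, 10.9 and 12.7 in PFF (1.501 ± 0.18, adjusted p = 0.000175). Both separated the groups without overlap.

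The talin gene Tln1 rose by 0.45 ± 0.10 from 41.6 ± 5.73 to 56.9 ± 3.23 CPM (adjusted p = 0.0150), and the actin crosslinker Actn4 by 0.32 ± 0.08 (adjusted p = 0.0389). Lims2, which encodes the adaptor PINCH-2, fell by 1.07 on the log2 scale from 12.97 ± 3.09 to 6.15 ± 0.731 CPM (adjusted p = 0.00312). Exons of Gpr17, an oligodendrocyte precursor marker that fell by 1.22 (adjusted p = 0.000175, edgeR), lie opposite 6.14% of the exonic bases of Lims2. Gpr17 and Lims2 both had counts that were not whole, and whether they share reads was not tested. Itgb1bp1, whose product ICAP-1 binds the β1 tail and holds it inactive, fell by 0.40 from 31.7 ± 1.71 to 24.1 ± 1.48 CPM (adjusted p = 0.0226). Of the exonic bases of Itgb1bp1, 16.9% lie opposite exons of Asap2 and Cpsf3. The broadly expressed kindlin Fermt2 stood at 131 ± 6.17 and 125 ± 5.67 CPM (adjusted p = 0.682) and the filamin Flna at 265 ± 38.4 and 285 ± 32.2 (adjusted p = 0.643). Tln1 did not pass without PBS 2 (0.0674) or PFF 1 (0.0624), Itgb1bp1 and Actn4 passed only without PFF 3 among the libraries left out, and Fermt3, Apbb1ip and Lims2 passed each time.

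Ligands of the leukocyte integrins were measured in the same libraries. Of 15 genes 10 were tested, beside 6.58% called among all genes tested. C3, the complement protein whose fragment iC3b binds αMβ2, was the only one of the 10 called. It stood at 11.2, 4.75 and 6.25 CPM in PBS and at 26.5, 22.4 and 33.9 in PFF (log2 fold change 1.91 ± 0.25, adjusted p = 0.00104, edgeR), and had an adjusted p of 0.0685 with replicates 1 and 2 only. Icam5, a neuronal ICAM that binds LFA-1, stood at 121 ± 13.6 and 141 ± 9.36 CPM (0.22 ± 0.09, adjusted p = 0.182), with 30.8% of its exonic bases opposite other genes. Vcam1, the ligand of α4β1, stood at 41.9 ± 7.22 and 35.0 ± 5.22 CPM (−0.26 ± 0.13, adjusted p = 0.281). The values of Cd44 (0.53 ± 0.16, adjusted p = 0.0643), Jam3 (−0.30 ± 0.11, 0.124), Jam2 (−0.18 ± 0.10, 0.312) and Thy1 (0.10 ± 0.09, 0.549) did not pass. With replicates 1 and 2 only, Cd44 (0.65, adjusted p = 0.0111), Jam3 (−0.37, 0.0222) and Icam5 (0.31, 0.00440) passed. Cd44 passed as well without PBS 3 (0.0228) and Jam3 without PFF 3 (0.0255), and Icam5 was 0.14 without PBS 1. Exons of Gm48796 lie opposite 36.2% of the exonic bases of Jam3. The median over the 10 was 0.16.

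Of 28 ligands of the broadly expressed integrins 27 were tested, 3 rose, none fell and the median was 0.19. Among all genes tested 3.98% were called higher and 2.60% lower. Spp1 (osteopontin, a ligand of αV and α4 integrins) stood at 126, 70.7 and 105 CPM in PBS and at 305, 293 and 395 in PFF, a log2 fold change of 1.72 ± 0.19 (adjusted p = 0.000657, edgeR; 0.148 with replicates 1 and 2 only). Another gene model shares 18.8% of its exonic bases on the same strand. Tgfb1, whose latent protein binds αV integrins, stood at 5.19, 3.01 and 4.33 CPM in PBS and at 12.3, 11.7 and 10.5 in PFF (1.47 ± 0.18, adjusted p = 0.000229). Fn1, fibronectin, the ligand of α5β1, rose from 25.5 ± 2.80 to 38.5 ± 7.77 CPM (0.60 ± 0.14, adjusted p = 0.0181), did not pass without PBS 3 (0.0660), and had a log2 fold change of 0.36 with replicates 1 and 2 only.

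Spp1, Tgfb1 and Fn1 did not overlap between the groups. Of the 27 genes 7 lay above and 3 below without overlap, against 13.4% and 11.6% of all genes tested. Nrros, which presents latent TGF-β1 on myeloid cells, stood at 4.67 ± 2.06 and 9.21 ± 2.41 CPM with an adjusted p of 0.0608 (log2 fold change 0.98 ± 0.28). The laminin chains Lama5 (−0.40 ± 0.13, adjusted p = 0.0957) and Lama1 (−0.72 ± 0.26, 0.132) did not pass, nor did L1cam (0.15 ± 0.08, 0.304) and the αV ligand Mfge8 (0.07 ± 0.15, 0.826). With replicates 1 and 2 only, Nrros (1.19, adjusted p = 0.00289) and Lama1 (−1.10, 0.00606) passed. Nrros passed as well without PBS 3 (0.0130) or PFF 2 (0.0391), and Lama1 passed without PFF 3 (0.0136) and was −0.42 without PFF 2.

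Markers of cell types moved with these genes, and the counts of calls stand beside 3.98% higher and 2.60% lower among all genes tested. Of 16 microglia and macrophage markers 15 were tested, 14 rose and none fell, and their sum was between 213 and 335 CPM in PBS and between 607 and 738 in PFF. Their median log2 fold change was 1.376, and the homeostatic markers P2ry12 and Tmem119 had at most 14 and 6 counts. Relative to that sum, Itgb2 made up 1.62, 1.64 and 1.17% in PBS and 2.29, 2.31 and 2.31% in PFF, without overlap. Its log2 fold change of 1.92 was above that median, so the higher share restates values already given and is no separate result. Itga5 made up 2.07, 2.55 and 2.37% in PBS and 1.73, 1.88 and 1.44% in PFF, and Itga4 1.91, 2.37 and 1.39% against 1.19, 1.01 and 0.736%. Any gene that rises more than the marker sum is higher on this scale, and any gene that rises less is lower. Itgb1, whose own level did not pass, went from 60.0 ± 14.2 to 24.4 ± 1.18%, and Itgav, Itgb5 and Itga6 were lower too. The lower values of Itga5 and Itga4 are therefore no contrast with Itgb2, and the part of microglial content in the changes was not tested.

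**Figure D4:**
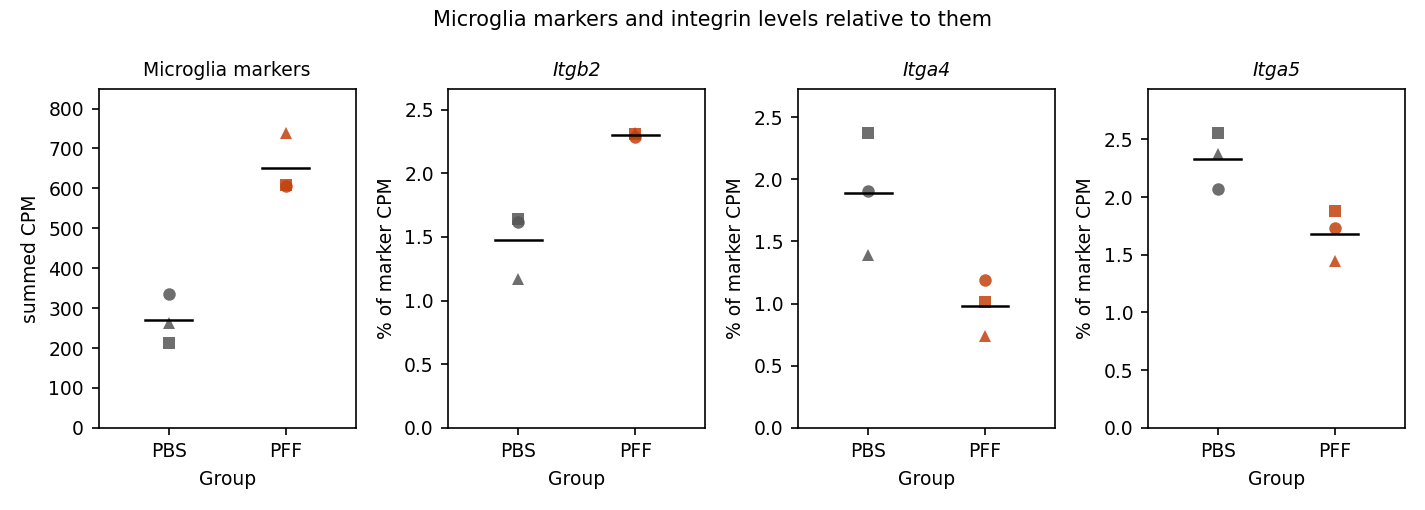
The left panel gives the summed CPM of 16 microglia markers per library, and the other panels give Itgb2, Itga4 and Itga5 as a percentage of that sum, with group means as bars. Itgb2 is higher relative to the markers in PFF (2.29 to 2.31%) than in PBS (1.17 to 1.64%), and Itga4 and Itga5 are lower. Any gene that rises more than the marker sum is higher on this scale, and any gene that rises less is lower.

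Markers of other leukocytes were near 0. Cd3e and Cd3g of T cells, Ncr1 of NK cells, Ms4a1 of B cells, and S100a9 and Elane of neutrophils had 0 counts in all libraries, and Cd3d and Cd8a had at most 3 and 1. The B cell gene Cd79b had 0, 1 and 1 counts in PBS and 0, 2 and 7 in PFF, highest in PFF 3, and Cd79a had at most 2. The 8 markers of T and NK cells summed to between 2.47 and 3.08 CPM, mostly from Lck and Cd4, and the 5 of neutrophils in the table to at most 0.192 CPM. In the lineage of oligodendrocytes all 7 progenitor and precursor markers fell (713 to 873 CPM summed in PBS, 507 to 543 in PFF) and all 5 myelin markers rose (310 to 373 and 560 to 874). Of 7 astrocyte markers 3 fell and 4 did not pass, and of 7 neuronal markers 1 rose and 6 did not pass. None of 3 tested endothelial markers (3.23 to 4.54 CPM summed over 6, with Cldn5 and Tie1 at 0) or of 7 fibroblast and mural markers (34.0 to 68.4 CPM) passed, and no part of these shifts in the integrin values was tested.

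The genes whose log2 CPM, centred on the PBS mean, lay nearest to Itgb2 over the 6 libraries were Adam8, Glipr1, C3ar1, Cd53, Arhgap25 and Stab1. Their root mean square differences were from 0.11 to 0.19. The 11508 candidates were tested genes that averaged 5 CPM or more over all 6 libraries. Genes whose symbols begin with Itga or Itgb were left out, so Itgam could not appear. Glipr1, Arhgap25 and Itgb2 itself were under 5 CPM on average in PBS and reached that mean through PFF. Adam8, a metalloprotease of leukocytes, stood at 14.6, 9.89 and 9.999 CPM in PBS and at 44.9, 41.7 and 50.1 in PFF. C3ar1, the receptor for the complement fragment C3a, stood at 17.1, 10.2 and 11.3 CPM in PBS and at 48.9, 44.7 and 48.7 in PFF. Cd53, a tetraspanin of leukocytes, went from 6.36 ± 2.08 to 20.7 ± 0.847 CPM, Arhgap25, a Rac regulator of blood cells, from 2.22 ± 0.340 to 8.95 ± 0.464, and the scavenger receptor gene Stab1 from 22.6 ± 7.33 to 84.8 ± 1.69 (adjusted p = 0.0842 with replicates 1 and 2 only). PBS 1 was the highest PBS library for Itgb2 and for each of these 6 genes, which a choice by distance over the same libraries favours. This is a description of 6 libraries in 2 groups, and the measure favours any gene with a rise of like size.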

How the data were processed

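Total RNA went into directional libraries (per the labels). What the authors deposited is a table of expected counts for each gene without scaling, and 8.69% of its values were not whole. Trim Galore 0.6.6, STAR 2.7.9a, the mm10 build and DESeq2 1.38.3 are named in the submitters' processing notes. Which counter, strand setting and annotation were used is not given in the sources used here, so genes that share exons may share reads.

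Columns were matched to samples by name and groups taken from the titles. Counts were rounded, filtered with filterByExpr of edgeR 4.0.16 (R 4.3.3, limma 3.58.1), which removed 10492 of 24411 genes, normalised by TMM and tested two-sided by the quasi-likelihood F-test with robust estimation and Benjamini-Hochberg adjustment over 13919 genes. Standard errors are the log2 fold change over the square root of F. Log2 CPM used a prior count of 2. The common dispersion was 0.00642. Coordinates, exon lengths and overlaps came from GENCODE vM21. Cyr61 and Ctgf stand for Ccn1 and Ccn2.

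All members and tested integrin subunits are named, with the 6 smallest p and the 2 most abundant uncalled genes of each ligand and adaptor list. The members and lists were chosen with earlier results of these data known. Counts were simulated for the 13919 genes of this comparison, each with the common dispersion. Of 50 genes changed 1.25-fold 9 were recovered, with 36 at 1.5-fold, 49 at 2-fold, 49 at 4-fold and 11 false calls. Genes that vary more than this dispersion may be recovered less often. Alternatives covered normalisation, filter, test (DESeq2 1.42.0, limma-voom), rounding, threshold, a replicate block and libraries left out. The summed level of the B cell markers is not reported here.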

Additional observations from a re-analysis of the deposited data

How the results depend on the processing

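Itgb2, Itga5 and Itgam passed in all 19 alternatives, with log2 fold changes from 1.67 to 2.19, 0.72 to 0.89 and 1.77 to 1.96. Itga4, Itga7, Itgb1 and Itgb8 passed in none of the 19, and Itgb1 was positive in 16. Itgav passed in 7, Itga6 in 4 and Itgb5 in 2, and no member was called lower in any. Scaling by library size only moved the share of calls that were higher from 60.5 to 68.8%.

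With each library left out in turn, 2 to 4 members were higher (Itgav and Itga6 were added without PBS 3). Over the whole table, 312 (without PFF 2) to 871 (without PFF 3) genes were then higher and 100 to 987 lower, for the same libraries. The group left with 2 libraries shares its spread estimate with the other group. With replicates 1 and 2 only, 4 members, 1225 genes higher and 1169 lower were called. With replicate 3 as a batch term these were 5, 1029 and 976. At an adjusted p under 0.01 there were 291 higher and 123 lower. The cause was not tested.

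The titles number both groups 1 to 3, but same-numbered libraries correlated at 0.09, 0.11 and 0.20 in their deviations from the group means, and PBS 2 correlated more with PFF 1 (0.13), while the other 5 unmatched pairs were negative (−0.21 to −0.01). The lowest same-numbered value was under 0.1, and the main fit used the group only, without the numbers as pairs. Whether the numbers mark shared cultures or batches is not stated, and these correlations do not decide it. With the replicate block 5 members (Itga5, Itga6, Itgav, Itgb2 and Itgb5) and 1043 genes were higher and 954 genes lower.

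The log2 ratio of Itgb2 to Itgb1 differed by 1.63 to 2.15 with a library left out. That of Itgal to Itgav went from −0.066 without PBS 3 to 0.74 without PBS 2. Leaving libraries out of the ratio of Itgal to Itgav was chosen after the data were seen. Depth limits Itgal, which had at most 12 counts in a library.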
